A study of Mus musculus with 48 samples.

Results

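Tibialis anterior muscle collected at 04:00 (circadian time 22, CT22) was compared with the same muscle collected at 16:00 (CT34), 12 h later in constant darkness. The comparison takes every library of these 2 times, 8 against 8, which is 16 of the 48 libraries of the series. Each time holds 2 mice from each of 4 cohorts: WT control, WT KPC, FoxP1SkmKO control and FoxP1SkmKO KPC. All mice were males of 39 to 55 weeks per the series record and the study's methods, although its limitations paragraph gives a younger age for the RNA-seq mice. They were kept under a 12-h light/dark cycle (lights on at 6 a.m.) and then in darkness from CT0. KPC mice carried an orthotopic pancreatic tumor grown from KPC cells, a mouse pancreatic cancer line, and controls were injected with saline. FoxP1SkmKO mice are homozygous for FoxP1fl/fl and carry ACTA1-Cre, which acts in skeletal muscle fibers and leaves *Foxp1* in the other cells of the muscle. The WT mice are C57BL/6J in one label and FoxP1fl/fl without Cre in the series record. Each library is 1 mouse at 1 time, and the 2 times follow each other within 1 cycle, so time of day and hours spent in darkness cannot be told apart.

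In the mammalian clock, BMAL1 (encoded by *Arntl*) pairs with CLOCK or NPAS2 and activates genes through E-box elements. Among these are the *Per* and *Cry* genes, whose proteins feed back on the BMAL1 complex, and *Nr1d1* and *Nr1d2*, whose REV-ERB proteins repress *Arntl* against the activating ROR receptors. The PAR bZIP factors DBP, TEF and HLF and their competitor NFIL3 carry the rhythm to further genes through D-box elements. In skeletal muscle this clock is known for its hold on fuel use and on genes of muscle identity.

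Clock promoters are shown here because the results turn first on genes of this loop. The window runs from 250 bases before to 50 bases after the start of the Ensembl canonical transcript (GRCm39, GENCODE vM39), written 5′ to 3′ on the gene's strand, with each motif in capitals. The E-box searched was CACGTG and the D-box TTATGTAA, on both strands. Other forms of the E-box were not searched. Below, the windows of *Per1*, *Cry1* and *Ciart* hold CACGTG, and those of *Per2* and *Per3* hold TTATGTAA. The windows of *Bhlhe40*, *Bhlhe41* and *Tef*, not shown, also held CACGTG.
Per1 (chr11:68989018-68989317, plus strand): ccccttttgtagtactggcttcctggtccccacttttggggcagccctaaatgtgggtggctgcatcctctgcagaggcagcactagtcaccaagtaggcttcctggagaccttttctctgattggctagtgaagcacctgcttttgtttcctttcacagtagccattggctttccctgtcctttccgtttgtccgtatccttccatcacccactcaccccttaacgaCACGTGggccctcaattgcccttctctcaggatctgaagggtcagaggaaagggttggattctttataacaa
Cry1 (chr10:85020900-85021199, minus strand): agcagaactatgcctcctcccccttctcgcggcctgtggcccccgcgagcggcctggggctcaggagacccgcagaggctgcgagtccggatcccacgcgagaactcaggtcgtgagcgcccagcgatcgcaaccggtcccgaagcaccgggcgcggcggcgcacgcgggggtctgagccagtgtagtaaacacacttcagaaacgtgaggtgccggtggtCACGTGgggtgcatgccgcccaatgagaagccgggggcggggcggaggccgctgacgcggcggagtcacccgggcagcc
Ciart (chr3:95789507-95789806, minus strand): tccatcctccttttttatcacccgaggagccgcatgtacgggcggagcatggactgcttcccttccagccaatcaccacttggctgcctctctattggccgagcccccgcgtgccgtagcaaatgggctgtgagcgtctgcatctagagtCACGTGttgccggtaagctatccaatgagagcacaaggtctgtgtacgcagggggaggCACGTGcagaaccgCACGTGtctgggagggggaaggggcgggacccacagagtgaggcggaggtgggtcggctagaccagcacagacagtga
Per2 (chr1:91386997-91387296, minus strand): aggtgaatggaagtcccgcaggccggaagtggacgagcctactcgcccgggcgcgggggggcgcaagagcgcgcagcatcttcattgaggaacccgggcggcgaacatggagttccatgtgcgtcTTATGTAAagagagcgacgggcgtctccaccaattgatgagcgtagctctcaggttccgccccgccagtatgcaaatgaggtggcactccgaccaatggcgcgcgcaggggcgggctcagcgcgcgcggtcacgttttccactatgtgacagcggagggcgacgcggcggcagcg
Per3 (chr4:151129091-151129390, minus strand): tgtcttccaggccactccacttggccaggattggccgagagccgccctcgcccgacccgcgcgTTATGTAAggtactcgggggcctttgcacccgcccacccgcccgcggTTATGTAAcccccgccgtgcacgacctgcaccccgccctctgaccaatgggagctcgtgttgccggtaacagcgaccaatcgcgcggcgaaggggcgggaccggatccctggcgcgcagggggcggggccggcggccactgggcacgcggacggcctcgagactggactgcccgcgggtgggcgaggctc
The *Ciart* window held 3 E-boxes, the *Per1* and *Cry1* windows 1 each, the *Per2* window 1 D-box and the *Per3* window 2. Among the 12779 protein-coding genes tested that had such a window, 10% held this E-box and 0.595% this D-box. The E-box share was 8.91% among genes higher at CT22 and 12.2% among genes higher at CT34, against 9.87% among genes not called. For the D-box these shares were 0.323%, 1.11% and 0.562%. A match of letters is a description and not a measured site. The windows of *Arntl*, *Clock*, *Npas2*, *Rora*, *Cry2*, *Nr1d1*, *Nr1d2*, *Nfil3*, *Dbp* and *Hlf* held neither CACGTG nor TTATGTAA.

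The libraries held 15072784 to 20139355 counted reads. The CT22 libraries were deeper (median 17899896, against 16301523 at CT34), and a smaller share of their reads was mitochondrial (11.4 to 13.8%, against 12.9 to 15.8%). Muscle fiber markers were high in every library, with a summed level of 51862 to 66255 FPKM over 12 genes (FPKM is a level scaled by gene length and by sequencing depth). *Foxp1*, the targeted gene, lay at 0.454 to 0.697 FPKM (median 0.568) in the 8 WT libraries and at 0.430 to 0.653 FPKM (median 0.560) in the 8 libraries labelled FoxP1SkmKO. The groups overlapped, and the log2 difference was -0.04 ± 0.08 (SE; adjusted p = 0.93, edgeR quasi-likelihood test). These counts cover the whole gene in whole muscle, on 100 to 157 reads a library, so they do not check the deletion in fibers. Among the genes and marker sums examined, the library labelled FoxP1SkmKO KPC CT34 replicate 2 was apart from the other CT34 libraries for 10 genes. Values without it are given beside each of these genes except *Rpl7l1*.

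The comparison asked which genes of muscle stand at different levels at these opposite times, whatever the cohort. Between the 2 times, 3202 of 14821 genes tested (21.6%) differed at an adjusted p under 0.05 in a fit with the cohort as covariate. Of these, 1622 (10.9% of genes tested) were higher at CT22 and 1580 (10.7%) were higher at CT34. Larger changes were less even: 143 genes (0.965%) were at least 2-fold higher at CT22 and 47 genes (0.317%) at least 2-fold higher at CT34. The 8 libraries of one time did not overlap with the 8 of the other for 272 genes (1.84%) higher at CT22 and for 284 genes (1.92%) higher at CT34. The log2 fold change (CT22 minus CT34) had a median of 0.01 over all genes tested. In the same model, the pair CT18 and CT30 had 2399 genes called (16.1%) and the pair CT26 and CT38 had 1559 (10.6%). Whether these counts differ between the pairs of times was not tested.

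The activating arm of the clock was higher at CT22. *Arntl* ran from 3.52 to 5.07 FPKM (median 4.46) at CT22 and from 0.683 to 1.07 FPKM (median 0.768) at CT34. Every CT22 library was above every CT34 library, a 5.43-fold difference (log2 2.44 ± 0.09 SE, adjusted p = 2.62e-13). *Npas2*, the paralog of *Clock*, was at 0.420 to 0.632 FPKM (median 0.538) at CT22 and at 0.0128 to 0.0643 FPKM (median 0.0278) at CT34. It had the largest fitted change of all genes tested, log2 3.82 ± 0.23 (adjusted p = 6.11e-10), and its level was low at both times. *Clock* itself changed less, from a median of 2.15 FPKM (1.95 to 2.57) to 1.37 FPKM (1.11 to 1.52), again with no overlap (log2 0.70 ± 0.06, adjusted p = 1.23e-07). *Rora*, which encodes an activator of *Arntl*, went the other way, from 3.90 to 4.79 FPKM (median 4.40) at CT22 to 5.39 to 7.72 FPKM (median 6.53) at CT34 (log2 -0.55 ± 0.06, adjusted p = 1.7e-06).

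**Figure D1:**
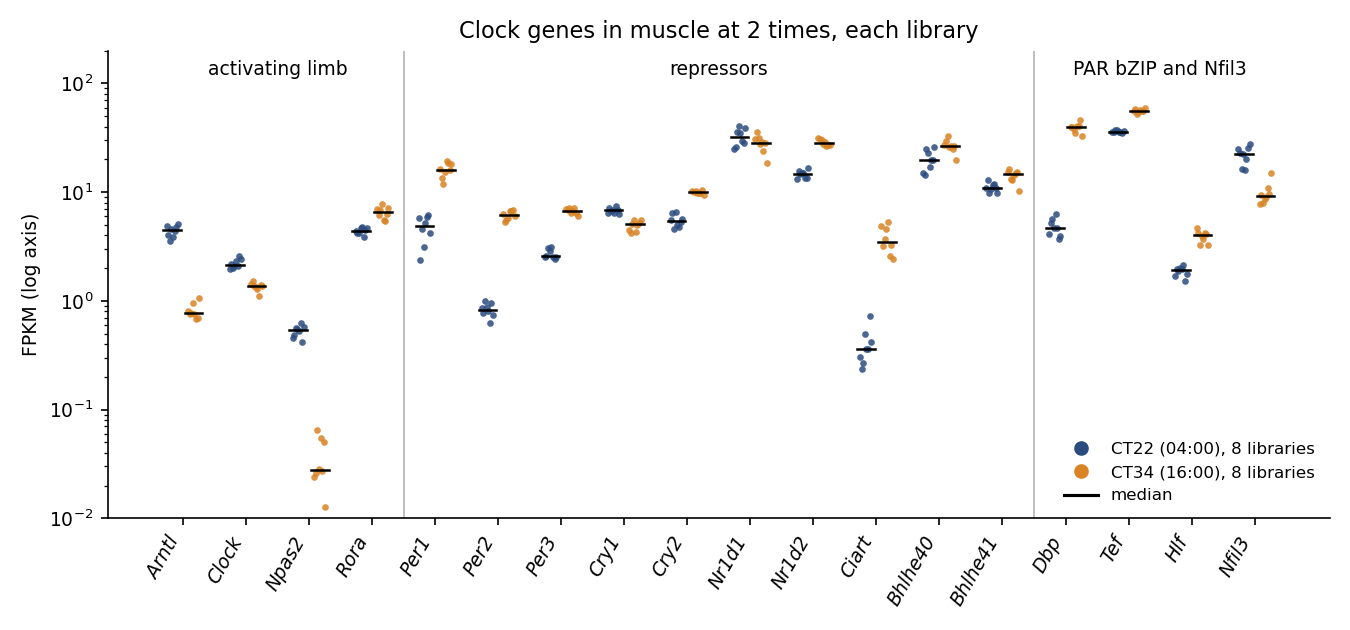
FPKM on a log axis for 18 clock genes, 1 point per library, 8 at CT22 and 8 at CT34, with the median as a bar. *Arntl* and *Npas2* sit high at CT22 while *Per2*, *Ciart* and *Dbp* sit high at CT34, each with no overlap, and *Nr1d1* overlaps.

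Most repressors were higher at CT34. *Per2* lay at 0.632 to 0.992 FPKM (median 0.831) at CT22 and at 5.29 to 6.80 FPKM (median 6.14) at CT34. The 2 ranges were far apart, with a 7.38-fold difference (log2 -2.88 ± 0.08, adjusted p = 1.76e-14). *Per1* was at 2.39 to 6.14 FPKM (median 4.91) against 11.9 to 19.2 FPKM (median 16.1), log2 -1.77 ± 0.13 (adjusted p = 8.04e-09). *Per3* was at 2.45 to 3.10 FPKM (median 2.57) against 6.07 to 7.21 FPKM (median 6.76), log2 -1.31 ± 0.05 (adjusted p = 5.05e-13). All *Per* genes thus separated the times completely. *Ciart*, which encodes the CHRONO repressor and has the 3 E-boxes shown above, was at 0.236 to 0.722 FPKM (median 0.362) against 2.45 to 5.36 FPKM (median 3.47). This was the largest change toward CT34, 9.24-fold (log2 -3.21 ± 0.22, adjusted p = 4.57e-09).

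The cryptochromes moved in opposite directions. *Cry1* was the one repressor higher at CT22, at 6.36 to 7.49 FPKM (median 6.83) against 4.22 to 5.6 FPKM (median 5.09) at CT34 (log2 0.47 ± 0.06, adjusted p = 2.31e-05). *Cry2* was at 4.61 to 6.55 FPKM (median 5.47) against 9.44 to 10.5 FPKM (median 9.95), log2 -0.86 ± 0.06 (adjusted p = 5.12e-09). Neither gene overlapped between the times. The 2 REV-ERB genes also differed from each other: *Nr1d2* was at 13.1 to 16.7 FPKM (median 14.8) against 26.5 to 31.7 FPKM (median 28.4), log2 -0.98 ± 0.05 (adjusted p = 1.62e-10). *Nr1d1* overlapped, at 25.1 to 40.6 FPKM (median 32.2) and 18.6 to 35.8 FPKM (median 28.5), and did not pass the test (log2 0.20 ± 0.11, adjusted p = 0.228). *Bhlhe40* and *Bhlhe41*, encoding the DEC repressors, were called higher at CT34 with overlapping ranges. *Bhlhe40* had medians of 19.6 and 26.6 FPKM (log2 -0.43 ± 0.10, adjusted p = 0.00525). *Bhlhe41* had medians of 10.9 and 14.8 FPKM (log2 -0.35 ± 0.06, adjusted p = 0.00073).

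The PAR bZIP genes were higher at CT34 and their competitor at CT22. *Dbp* rose from 3.69 to 6.34 FPKM (median 4.65) at CT22 to 33.0 to 46.0 FPKM (median 39.5) at CT34, an 8.19-fold difference with no overlap (log2 -3.03 ± 0.09, adjusted p = 1.76e-14). *Tef* was tight within each time, at 34.9 to 37.7 FPKM (median 36.0) against 52.7 to 58.9 FPKM (median 56.4), with no overlap (log2 -0.64 ± 0.03, adjusted p = 1.25e-10). *Hlf* was at 1.52 to 2.14 FPKM (median 1.91) against 3.24 to 4.67 FPKM (median 4.04), log2 -1.06 ± 0.07 (adjusted p = 5.79e-09). *Nfil3* was at 16.0 to 27.5 FPKM (median 22.6) at CT22 and at 7.87 to 15.1 FPKM (median 9.25) at CT34 (log2 1.16 ± 0.10, adjusted p = 1.24e-07). Its CT34 maximum was in the library labelled FoxP1SkmKO KPC CT34 replicate 2, without which the log2 difference was 1.23. In all, 17 of 18 clock genes reported here were called, beside 21.6% of all genes.

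The mean levels at the other times place these differences in the cycle, as a description. *Arntl*, *Clock* and *Npas2* had their highest mean at CT22 and their lowest at CT34. *Per1*, *Per2*, *Per3* and *Cry2* had their lowest mean at CT22 and their highest at CT34, so the comparison spans close to their whole range. For *Nr1d1* it does not: its mean was highest at CT26, with 32.3 FPKM at CT22, 28.2 FPKM at CT34 and 9.72 FPKM, the lowest, at CT38. *Dbp* and *Ciart* had their lowest mean at CT22 and their highest at CT30 (42.5 and 4.82 FPKM) rather than at CT34 (39.1 and 3.74 FPKM). Of the 1622 genes called higher at CT22, 648 (40%) had their highest mean at CT22, 528 (32.6%) at CT26 and 388 (23.9%) at CT18. Of the 1580 called higher at CT34, 946 (59.9%) had their highest mean at CT34, 303 (19.2%) at CT30 and 198 (12.5%) at CT38. Among genes not called, 10.9% had their highest mean at CT22 and 12.6% at CT34. A call favors a highest mean at the time called and excludes the other time, so these shares are a description only.

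**Figure D2:**
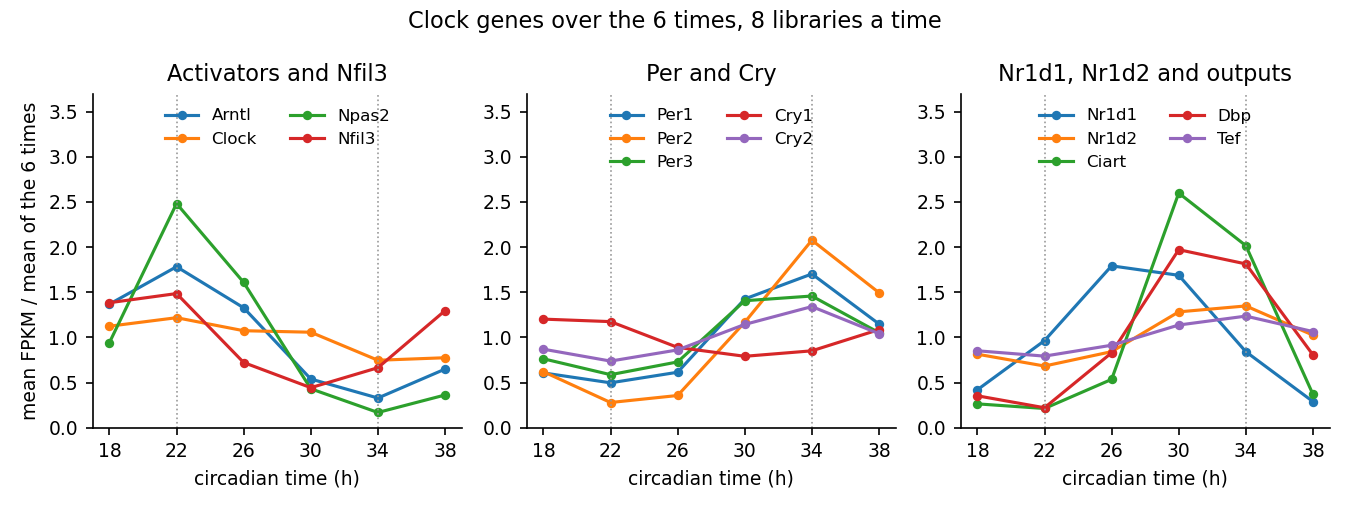
Mean FPKM over 8 libraries at each circadian time from CT18 to CT38, divided by the mean of the 6 times, with dotted lines at CT22 and CT34. *Per2* runs from its lowest value at CT22 to its highest at CT34, whereas *Nr1d1* has its highest values between the dotted lines.

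Beyond the clock, the largest differences were taken among called genes with a mean above 1 on the log2 CPM scale, CPM being counts scaled by library size, and 1 sign in all cohorts. Those higher at CT22 were of several kinds. *Pnpla3*, which encodes a lipid droplet acylhydrolase, was at 7.29 to 9.76 FPKM (median 8.73) at CT22 and at 1.33 to 2.86 FPKM (median 1.82) at CT34. Its 4.58-fold difference came with no overlap (log2 2.20 ± 0.11, adjusted p = 6.29e-11). The carrier gene *Slc16a9* was at 2.66 to 3.5 FPKM (median 3.14) against 0.702 to 1.18 FPKM (median 0.889), log2 1.76 ± 0.10 (adjusted p = 1.53e-10). *Fam110b* had medians of 0.860 and 0.220 FPKM (log2 1.88 ± 0.15). *Rgs2*, a brake on G protein signaling, had medians of 2.05 and 0.726 FPKM (log2 1.52 ± 0.14). *Cdkn1a*, encoding the cell cycle inhibitor p21, had medians of 3.73 and 1.47 FPKM (log2 1.44 ± 0.15), and *Creb3l1* medians of 2.03 and 0.778 FPKM (log2 1.39 ± 0.18). In none of these 6 genes did the times overlap. *Wdfy4* did not share this evenness: 1.91 FPKM in FoxP1SkmKO control CT22 replicate 2 stood against a median of 0.159 FPKM at CT22 and 0.0915 FPKM at CT34. Its log2 difference of 1.63 ± 0.48 (adjusted p = 0.0208) was 0.80 (adjusted p = 0.027) without that library.

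By the same rule, the largest differences toward CT34 outside the clock and the mitochondrial genome were in *Arrdc2*, *Cep85l*, *Nrip1* and *Hhipl1*. *Arrdc2*, an arrestin domain gene known to respond to glucocorticoids, was at 4.21 to 13.5 FPKM (median 9.11) at CT22 and at 15.5 to 56.4 FPKM (median 25.5) at CT34 (log2 -1.65 ± 0.18, adjusted p = 2.96e-06). *Cep85l* was at 3.28 to 5.46 FPKM (median 3.92) against 7.51 to 15.6 FPKM (median 10.1), log2 -1.38 ± 0.10 (adjusted p = 5.79e-09). *Nrip1*, the nuclear receptor corepressor RIP140 that restrains oxidative genes in muscle, was at 1.43 to 2.55 FPKM (median 1.81) against 4.2 to 5.27 FPKM (median 4.65), log2 -1.35 ± 0.07 (adjusted p = 9.8e-11). *Hhipl1* had medians of 0.312 and 0.814 FPKM (log2 -1.32 ± 0.14, adjusted p = 1.74e-06). None of these 4 genes overlapped between the times.

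A few of the largest changes were in a ribosomal RNA gene, an unnamed gene and genes of the mitochondrial genome. Poly(A) selection carries ribosomal and transfer RNA only in part. The ribosomal RNA gene *Rn18s-rs5* was at 779 to 2235 FPKM (median 1590) at CT22 and at 187 to 1143 FPKM (median 370) at CT34 (log2 1.93 ± 0.28, adjusted p = 7.25e-05), and at log2 2.19 without FoxP1SkmKO KPC CT34 replicate 2. The unnamed gene ENSMUSG00002076173 was at 18.1 to 111 FPKM (median 48.1) against 3.58 to 41.0 FPKM (median 14.2), log2 1.71 ± 0.40 (adjusted p = 0.00511), and at log2 2.09 without that same library. The mitochondrial transfer RNA gene *mt-Tl2* was at 16.0 to 48.4 FPKM (median 31.3) against 46.9 to 377 FPKM (median 153), log2 -2.37 ± 0.33 (adjusted p = 4.01e-05). These genes spread several-fold among libraries of 1 time. Of the 13 mitochondrially encoded protein genes, 10 were higher at CT34 and none at CT22 (median log2 -0.25). The short *mt-Nd4l* (medians of 507 and 1728 FPKM, log2 -1.62 ± 0.27) and *mt-Nd3* (27.0 and 82.1 FPKM, log2 -1.35 ± 0.25) led them, while *mt-Nd1* had medians of 18333 and 22026 FPKM (log2 -0.22). Without FoxP1SkmKO control CT34 replicate 1 the count was 6. Depth and the share of mitochondrial reads moved with time as given above, and their part in these differences was not tested. With all libraries thinned to the lowest depth, 3054 genes were called in place of 3202.

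Whether the time effect differed between the cohorts was tested next. Within single cohorts, at 2 libraries against 2, 542 genes (3.66%) were called in WT control, 892 (6.02%) in WT KPC, 303 (2.04%) in FoxP1SkmKO control and 240 (1.62%) in FoxP1SkmKO KPC. Of the 3202 genes called over all cohorts, 2972 (92.8%) had the same sign in all 4, as had 37% of all genes tested. A call over all cohorts favors such genes, so the share is a description only. The difference of the time effect between KPC and control mice was called for 0 genes (0%) with edgeR, beside 669 at an unadjusted p under 0.05, and for 0 with DESeq2. The three-way difference was called for 0 genes (0%), beside 731 at an unadjusted p under 0.05, and for 1 with DESeq2. The difference between the genotypes was called for 1 gene (0.00675%), beside 1287 at an unadjusted p under 0.05, and for 11 with DESeq2. For the tumor, three-way and genotype terms, the unadjusted counts were 4.51%, 4.93% and 8.68% of genes tested. Chance alone would give a share near the threshold of 0.05. At 2 mice per group, few calls do not show that the time effect was the same in the cohorts.

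*Mid1ip1*, which encodes an activator of acetyl-CoA carboxylase in lipid synthesis, was the gene called between the genotypes. At CT22 it was at 15.5, 15.3, 18.0 and 13.5 FPKM in the 4 WT libraries and at 10.6, 10.7, 11.2 and 8.94 FPKM in the 4 libraries labelled FoxP1SkmKO. At CT34 it was at 19.5, 20.8, 21 and 25.7 FPKM in WT and at 26.9, 24.8, 28.1 and 29.6 FPKM in those labelled FoxP1SkmKO. The libraries labelled FoxP1SkmKO were lower at CT22 and, except for 1 WT KPC library above 1 of them, higher at CT34. The time effect was log2 -0.39 ± 0.13 and -0.56 ± 0.13 in WT control and KPC mice and -1.27 ± 0.13 and -1.52 ± 0.13 in FoxP1SkmKO control and KPC mice. The difference between genotypes was log2 -0.92 ± 0.13 (adjusted p = 0.0443), and it missed the threshold when any of 12 single libraries was left out, with a replicate block and with all 48 libraries in the fit. Next in order, *Ugp2*, which makes UDP-glucose for glycogen, and *Lemd2*, a nuclear envelope gene, had adjusted p = 0.0914 each (log2 0.43 ± 0.07 and -0.44 ± 0.07). The lowest p-values of the tumor contrast belonged to *Plekhh3*, *Kcna1* and *Car3* (adjusted p = 0.987 each), and those of the three-way contrast to *Atcay*, *Ighm* and *Gamt* (adjusted p = 0.71 each).

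**Figure D3:**
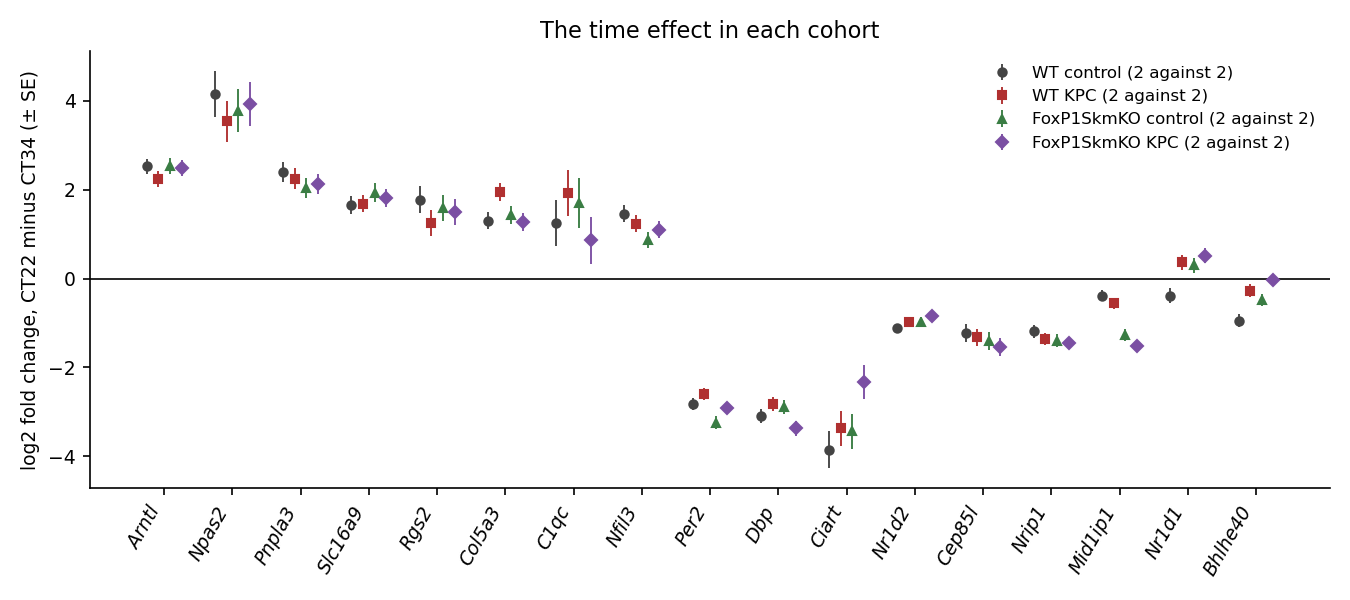
Log2 fold change (CT22 minus CT34) with its SE in each of the 4 cohorts, 2 libraries against 2, for 17 genes. The cohorts lie close together for *Arntl*, *Nr1d2* and *Nrip1*, and the genotypes part at *Mid1ip1*.

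The clock genes kept their direction in each cohort with few exceptions. For *Arntl* the log2 differences were 2.52, 2.24, 2.52 and 2.48 in WT control, WT KPC, FoxP1SkmKO control and FoxP1SkmKO KPC mice. For *Dbp* they were -3.09, -2.82, -2.89 and -3.36. *Ciart* ranged from -3.85 in WT control to -2.32 in FoxP1SkmKO KPC mice, and *Bhlhe40* from -0.95 to -0.04 in the same cohorts. *Nr1d1* was at -0.38 in WT control mice and at 0.36, 0.29 and 0.52 in the others, none of them past the threshold. None of these genes had a called difference between cohorts. *Foxp1* was at 0.430 to 0.583 FPKM (median 0.533) at CT22 and at 0.482 to 0.697 FPKM (median 0.630) at CT34 over all cohorts (log2 -0.26 ± 0.08, adjusted p = 0.0313), a call that was lost when any of 6 single libraries was left out.

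Lists of genes by function were then read against the background of 10.9% of genes called higher at CT22 and 10.7% called higher at CT34. Genes of pyruvate oxidation leaned to CT34. Of 14 genes of the pyruvate dehydrogenase complex and its control, 7 were higher at CT34 and 0 at CT22 (median log2 -0.16, against 0.01 over all genes). The pyruvate dehydrogenase phosphatases, which switch the complex on, changed most. *Pdp1* was at 18.1 to 24.1 FPKM (median 20.3) against 25.8 to 34.7 FPKM (median 31.9), log2 -0.58 ± 0.06 (adjusted p = 1.26e-06), and *Pdp2* had medians of 0.684 and 1.09 FPKM (log2 -0.68 ± 0.13, adjusted p = 0.000918). The kinase gene *Pdk4*, which switches it off, had medians of 64.6 and 87.3 FPKM and did not pass the test (log2 -0.52, adjusted p = 0.0822).

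For glycogen, 7 of 22 genes were higher at CT34, 2 at CT22 and 13 were not called, with a median log2 of -0.02. The 2 glycogen-targeting subunits of protein phosphatase 1 named here moved apart. *Ppp1r3c* was at 121 to 203 FPKM (median 155) at CT22 and at 52.7 to 149 FPKM (median 62.5) at CT34, and 149 FPKM belonged to FoxP1SkmKO KPC CT34 replicate 2, the other CT34 libraries reaching 73.4 FPKM. Its log2 difference was 1.15 ± 0.12 (adjusted p = 2.64e-06) and 1.30 without that library. *Ppp1r3a* was at 38.6 to 48.9 FPKM (median 43.6) against 49.3 to 63.6 FPKM (median 59.2), with no overlap (log2 -0.41 ± 0.05, adjusted p = 8.58e-06). *Stbd1* was higher at CT22 (log2 0.32 ± 0.08) and the glycogen synthase kinase gene *Gsk3b* at CT34 (log2 -0.32 ± 0.05). Of 30 genes of glucose uptake and glycolysis, 3 were higher at CT22 and 5 at CT34, the latter 3 when any of 8 single libraries was left out. *Hk2*, the hexokinase that commits glucose in muscle, was at 64.2 to 81.7 FPKM (median 72.7) against 92.3 to 106 FPKM (median 104), log2 -0.47 ± 0.04 (adjusted p = 7.52e-08). *Pfkfb1* was also higher at CT34 (log2 -0.43 ± 0.05), and *Pfkp* (log2 0.56 ± 0.10) and the lactate exporter gene *Slc16a3* (log2 0.24 ± 0.04) were higher at CT22.

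Lipid and sterol synthesis leaned to CT22, with 13 of 37 genes higher at CT22 and 4 at CT34 (median log2 0.17). Leaving out 1 library gave 8 to 12 and 2 to 4, with 8 at CT22 without WT KPC CT22 replicate 2, WT KPC CT34 replicate 1, FoxP1SkmKO control CT22 replicate 2, FoxP1SkmKO control CT34 replicate 1 or FoxP1SkmKO KPC CT22 replicate 1. The regulators themselves were among them. *Srebf1*, which drives fatty acid synthesis, was at 12.4 to 17.2 FPKM (median 14.6) against 8.12 to 11.1 FPKM (median 9.93), log2 0.62 ± 0.07 (adjusted p = 8.4e-06). *Srebf2*, which drives sterol synthesis, was at 3.2 to 4.19 FPKM (median 3.62) against 2.04 to 2.93 FPKM (median 2.45), log2 0.56 ± 0.08 (adjusted p = 3.39e-05). *Gpam*, encoding the acyltransferase that starts glycerolipid synthesis, went to CT34, at 38.0 to 40.8 FPKM (median 39.0) against 52.4 to 58.5 FPKM (median 56.1), log2 -0.50 ± 0.03 (adjusted p = 1.69e-09). *Dgat2*, the last step to triglyceride, also did (log2 -0.46 ± 0.10). Of 42 genes of fatty acid uptake and oxidation, 3 were higher at CT22, among them *Mgll* and *Plin2* (log2 0.25 each), and 8 at CT34, among them *Acsl1* (log2 -0.27) and *Decr1* (log2 -0.26). The CT34 count was 14 without WT control CT22 replicate 2 and 13 without WT control CT34 replicate 1.

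**Figure D4:**
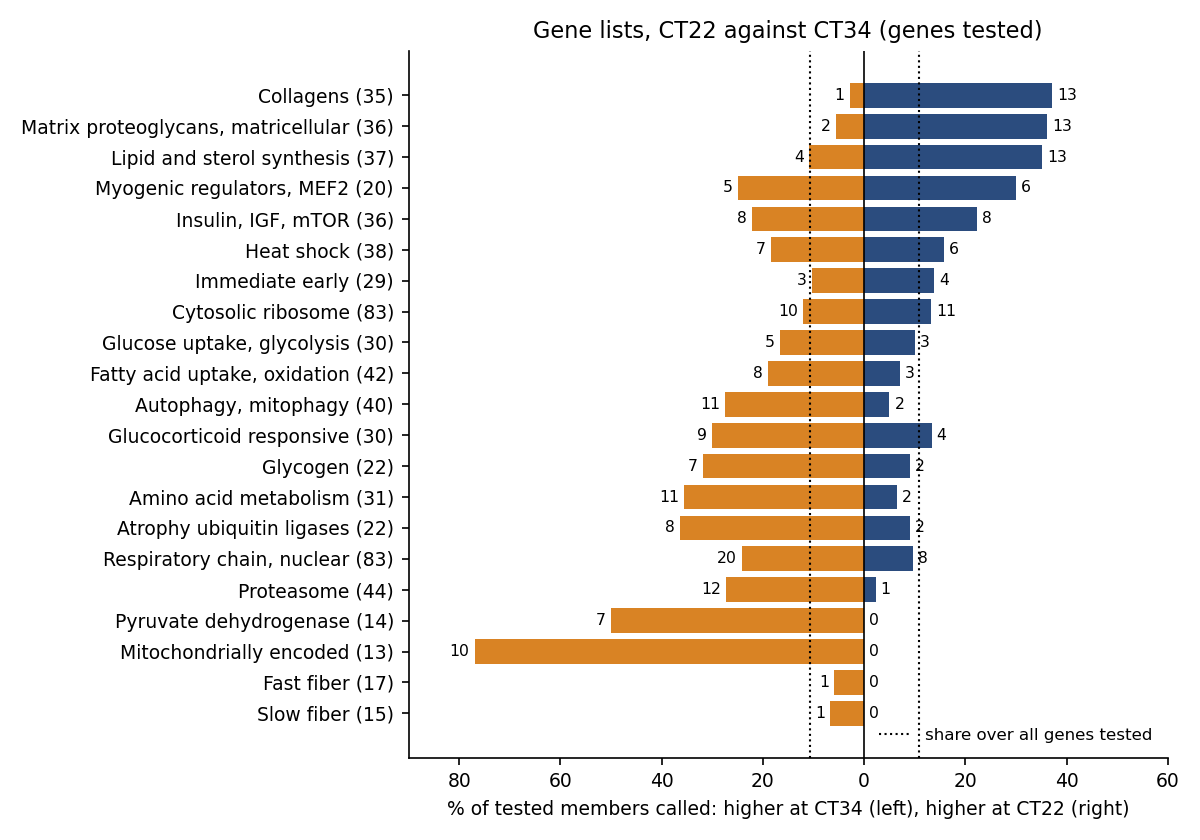
Share of the tested members of 21 lists (number tested in parentheses) called higher at CT22 (right) or at CT34 (left), with the number of genes called beside each bar and dotted lines at the shares over all genes. Among the lists drawn, collagens, matrix genes and lipid synthesis reach farthest to the right, and mitochondrially encoded genes and pyruvate dehydrogenase farthest to the left.

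Among genes of protein breakdown that were called, more were higher at CT34 than at CT22. Of 44 proteasome genes, 12 were higher at CT34 and 1 at CT22 (median log2 -0.06), led by *Psma3* (medians of 12.7 and 15.1 FPKM, log2 -0.29 ± 0.04, adjusted p = 2.16e-05) and *Psmc1* (47.1 and 53.4 FPKM, log2 -0.20 ± 0.04). The exception was *Psmb10*, an immunoproteasome subunit (log2 0.29 ± 0.10, adjusted p = 0.0422). The CT22 count of proteasome genes was 0 when any of 13 single libraries was left out. Of 22 ubiquitin ligase genes of muscle atrophy, 8 were higher at CT34, *Wwp1* (log2 -0.23) and *Ubr4* (log2 -0.24) first, and 2 at CT22. *Asb2*, a ligase subunit that limits muscle mass, was the large change of this list, at 348 to 411 FPKM (median 382) at CT22 and at 185 to 252 FPKM (median 205) at CT34 (log2 0.90 ± 0.05, adjusted p = 3.27e-10). Its CT34 maximum came from FoxP1SkmKO KPC CT34 replicate 2, and the log2 difference was 0.93 without it. *Nedd4l* was called higher at CT22 by log2 0.14 ± 0.05 (adjusted p = 0.0474). The CT22 count of this list was 1 when any of 12 single libraries was left out. The atrophy ligase genes *Fbxo32* (medians of 31.7 and 30.4 FPKM) and *Trim63* (53.4 and 53.0 FPKM) did not pass the test (adjusted p = 0.683 and 0.674). Of 40 autophagy and mitophagy genes, 11 were higher at CT34 and 2 at CT22, the latter 1 when any of 6 single libraries was left out. *Rb1cc1*, an initiator of autophagosomes, was at 3.31 to 4.23 FPKM (median 3.68) against 4.59 to 5.91 FPKM (median 5.18), log2 -0.49 ± 0.05 (adjusted p = 1.56e-06). *Gabarapl1* followed (log2 -0.35 ± 0.07), while *Rubcn*, a brake on autophagy, was higher at CT22 (log2 0.29 ± 0.05), as was *Tfe3* (log2 0.22 ± 0.07).

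Amino acid metabolism had 11 of 31 genes higher at CT34 and 2 at CT22. Without WT KPC CT22 replicate 2 these were 7 and 4, and without WT KPC CT34 replicate 2 the CT34 count was also 7. The cationic amino acid carrier gene *Slc7a2* was at 7.19 to 10.7 FPKM (median 8.72) against 12.2 to 16.8 FPKM (median 14.9), log2 -0.75 ± 0.06 (adjusted p = 7.98e-08). *Glul*, glutamine synthetase, was at 37.7 to 52.7 FPKM (median 38.9) against 43.6 to 129 FPKM (median 62.8). The highest value was in FoxP1SkmKO KPC CT34 replicate 2, and its log2 difference was -0.67 ± 0.13 (adjusted p = 0.00081) with and -0.53 without that library. The neutral amino acid carriers of the SLC38 family went to CT22, *Slc38a4* with medians of 22.0 and 14.6 FPKM (log2 0.58 ± 0.05, adjusted p = 3.5e-07) and *Slc38a2* with 17.4 and 13.0 FPKM (log2 0.44 ± 0.06, and 0.49 without that same library).

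Among 30 genes that respond to glucocorticoids, 9 were higher at CT34 and 4 at CT22. *Per1* and *Arrdc2*, higher at CT34, and *Cdkn1a*, higher at CT22, were given above and belong to this list, as does *Klf9*, at 31.2 to 40.3 FPKM (median 34.6) against 47.3 to 52.5 FPKM (median 51.0), log2 -0.56 ± 0.04 (adjusted p = 2.45e-08). *Fkbp5*, a chaperone of the receptor, was higher at CT22, at 3.73 to 5.04 FPKM (median 4.58) against 1.82 to 6.03 FPKM (median 2.68). The one CT34 library above every CT22 library was FoxP1SkmKO KPC CT34 replicate 2, and the log2 difference was 0.60 ± 0.13 (adjusted p = 0.00327) with and 0.74 without it. In insulin, IGF and mTOR signaling, 8 of 36 genes were higher at each time, *Irs1* (log2 0.50) and *Ddit4l* (log2 0.41) at CT22 and *Igf1r* (log2 -0.50) and *Rps6kb1* (log2 -0.27) at CT34. Of 23 genes of myostatin, activin and BMP signaling, 5 were higher at CT22, with *Smad6* (log2 0.54) first and *Ltbp3* (log2 0.21) next, and 4 at CT34. The activin receptor gene *Acvr1b* was at 18.6 to 22.6 FPKM (median 21.2) against 28.6 to 37.8 FPKM (median 31.9), log2 -0.61 ± 0.06 (adjusted p = 3.25e-07), and the BMP receptor gene *Bmpr1a* was also higher at CT34 (log2 -0.28). In cytokine and JAK-STAT signaling, 4 of 29 genes were higher at CT22 and 7 at CT34. The kinase gene *Pim1* had medians of 7.40 and 3.46 FPKM (log2 1.34 ± 0.11, adjusted p = 5.86e-08) and *Bcl6* of 14.1 and 10.6 FPKM (log2 0.45), while *Jak2* (log2 -0.40) and *Ghr* (log2 -0.30) were higher at CT34.

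Regulators of muscle identity were split. Of 20 myogenic and MEF2 genes, 6 were higher at CT22 and 5 at CT34. *Myod1*, the myogenic factor and a known target of the clock, was at 27.0 to 39.1 FPKM (median 35.8) against 13.1 to 30.3 FPKM (median 17.5), log2 0.82 ± 0.09 (adjusted p = 4.75e-06). *Tead4* was at 3.15 to 5.35 FPKM (median 4.31) against 1.61 to 2.50 FPKM (median 1.78), with no overlap (log2 1.16 ± 0.09, adjusted p = 2.45e-08). *Mef2c* (log2 -0.27) and *Sox6* (log2 -0.25), a repressor of slow fiber genes, were higher at CT34. Fiber type genes had few calls: 1 of 17 fast fiber genes was called, *Myh4* with medians of 8770 and 10135 FPKM (log2 -0.19 ± 0.05, adjusted p = 0.0121). Of 15 slow fiber genes, 1 was called. That gene, *Myh7*, had medians of 0.334 and 0.550 FPKM, and 4.76 FPKM in WT KPC CT34 replicate 1 and 4.45 FPKM in FoxP1SkmKO KPC CT34 replicate 1. Its log2 difference of -1.45 ± 0.46 (adjusted p = 0.0306) was -0.96 (adjusted p = 0.0991) without the first and -0.95 (adjusted p = 0.163) without the second. In calcium handling and excitation, 5 of 27 genes were higher at CT22, with *Kcnj11* (log2 0.35) and *Kcnc1* (log2 0.18) first, and 4 at CT34, with *Musk* (log2 -0.60) and *Jph1* (log2 -0.19) first. The CT22 count was 3 when any of 6 single libraries was left out.

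The nuclear genes of the respiratory chain had 20 of 83 members higher at CT34 and 8 at CT22 (median log2 -0.03). *Atp5md* (medians of 31.4 and 39.1 FPKM, log2 -0.30 ± 0.04) and *Ndufs5* (82.5 and 101 FPKM, log2 -0.28 ± 0.04) did not overlap, and *Atp5d* (log2 0.23) and *Ndufa4l2* (log2 0.56) were higher at CT22. Of 19 tricarboxylic acid cycle genes, 3 were higher at CT22, *Sdhc* and *Mdh2* among them (log2 0.16 each), and 2 at CT34, *Sdha* and *Sucla2* (log2 -0.15 and -0.14). Cytosolic ribosomal proteins had 11 of 83 genes higher at CT22 and 10 at CT34. Leaving out 1 library gave 7 to 11 and 3 to 12, with 3 at CT34 without WT KPC CT22 replicate 2. Immediate early genes had 4 of 29 higher at CT22 (7 without WT KPC CT22 replicate 1) and 3 of 29 at CT34. *Klf10* (log2 0.87) and *Klf6* (log2 -0.36) were each the first in its direction. The tricarboxylic acid cycle, cytosolic ribosomal and immediate early lists had 26.3%, 25.3% and 24.1% of genes called, near the 21.6% of all genes. Heat shock genes had 6 of 38 higher at CT22 and 7 at CT34, the latter 3 without WT control CT22 replicate 1 or WT KPC CT34 replicate 1 and 4 without WT KPC CT22 replicate 2 or WT KPC CT34 replicate 2. Of these, the collagen chaperone gene *Serpinh1* (log2 0.54) and the small heat shock protein gene *Hspb1* (medians of 122 and 94.2 FPKM, log2 0.42 ± 0.06, adjusted p = 2.3e-05) were higher at CT22. *Dnajb9* (9.90 and 14.7 FPKM, log2 -0.51 ± 0.05, adjusted p = 1.45e-06) was higher at CT34. Of 3 RNA-binding protein genes of the cold response, *Cirbp* (log2 -0.20) and *Srsf5* (log2 -0.30) were higher at CT34. Of 29 genes of the stress response, 5 were higher at CT34 and 1 at CT22, the latter 1 to 4 when 1 library was left out. The 2 regulatory subunits for eIF2α dephosphorylation took opposite directions, *Ppp1r15a* at log2 0.26 and *Ppp1r15b* at log2 -0.32. Among 9 FOX genes, *Foxp4* (log2 0.28) was higher at CT22, and *Foxk1* (log2 -0.20) and *Foxp1* were among 3 higher at CT34, a count of 1 when any of 5 single libraries was left out.

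Of 35 collagen genes of the extracellular matrix, 13 were higher at CT22, 1 was higher at CT34 and 21 were not called (median log2 0.34). *Col5a3* was at 4.55 to 7.24 FPKM (median 6.37) against 1.42 to 2.78 FPKM (median 2.24), log2 1.47 ± 0.11 (adjusted p = 1.7e-08). The basement membrane collagen gene *Col4a2* was at 19.1 to 27.4 FPKM (median 25.3) against 9.79 to 14 FPKM (median 12.1), log2 1.03 ± 0.06 (adjusted p = 5.72e-10). Neither overlapped, whereas the fibrillar *Col3a1* did, at 6.44 to 15.5 FPKM (median 12.7) and 3 to 11 FPKM (median 4.60), log2 1.09 ± 0.22 (adjusted p = 0.00163). The exception, *Col17a1*, was below 0.11 FPKM in every library (log2 -1.37 ± 0.38). Of 36 matrix proteoglycan and matricellular genes, 13 were higher at CT22 and 2 at CT34. The membrane protease gene *Mmp14* had medians of 2.41 and 1.21 FPKM (log2 1.03 ± 0.15, adjusted p = 5.94e-05). The protease inhibitor gene *Timp3* had medians of 6.82 and 11.2 FPKM (log2 -0.67 ± 0.08, adjusted p = 7.9e-06), and with *Adamts1* (log2 -0.39) made up the genes of that list higher at CT34.

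Markers of macrophages, fibroadipogenic cells and endothelium held most of the calls among cell types other than fibers. Of 11 macrophage markers tested, 10 were higher at CT22 and 0 at CT34 (median log2 1.16). *C1qa*, *C1qb* and *C1qc*, which encode the complement component made by resident macrophages, had medians of 6.13, 6.87 and 3.71 FPKM at CT22 and 2.91, 3.12 and 1.25 FPKM at CT34. *C1qc* ranged from 1.84 to 6.33 FPKM at CT22 and from 0.613 to 2.26 FPKM at CT34 (log2 1.43 ± 0.26, adjusted p = 0.000659). *Csf1r*, the receptor that macrophages need to survive, was at 1.17 to 2.44 FPKM (median 1.63) against 0.394 to 1.40 FPKM (median 0.604), log2 1.30 ± 0.20 (adjusted p = 9.72e-05). *Adgre1*, encoding the F4/80 antigen, had the largest difference of the list, with medians of 0.559 and 0.149 FPKM (log2 1.83 ± 0.36, adjusted p = 0.00121). *Aif1* did not pass the test (log2 1.16 ± 0.46, adjusted p = 0.0827), and *Fcgr1* was too low to be tested. The summed level of all 12 markers was 29.5 to 65.1 FPKM (median 41.9) at CT22 and 13.7 to 29.5 FPKM (median 18.5) at CT34. In each cohort both CT22 sums were at or above both CT34 sums. In bulk muscle, fewer cells of a type and less RNA per cell cannot be told apart.

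Fibroadipogenic markers had 7 of 12 genes higher at CT22 and 0 at CT34 (median log2 0.68), with a summed level of 125 to 285 FPKM (median 193) against 93.8 to 209 FPKM (median 104). The ranges overlapped, and WT control CT34 replicate 1 had the highest sum at CT34. *Smoc2* (log2 0.67 ± 0.17) and *Col3a1* were the members with the lowest p, and 2 members of the list, *Col1a1* and *Col3a1*, also stand in the collagen list. Of 12 endothelial markers, 8 were higher at CT22 and 1 at CT34, and the summed levels overlapped, at 289 to 361 FPKM (median 325) and 293 to 356 FPKM (median 317). The tight junction gene *Cldn5* was at 12.1 to 20.4 FPKM (median 15.8) against 5.39 to 9.36 FPKM (median 6.23), log2 1.26 ± 0.08 (adjusted p = 2.02e-09). The 2 VEGF receptor genes went in opposite directions with no overlap: *Kdr* was higher at CT22 (log2 0.71 ± 0.08, adjusted p = 2.64e-06) and *Flt1* at CT34, with medians of 6.86 and 9.12 FPKM (log2 -0.41 ± 0.05, adjusted p = 7.39e-06).

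**Figure D5:**
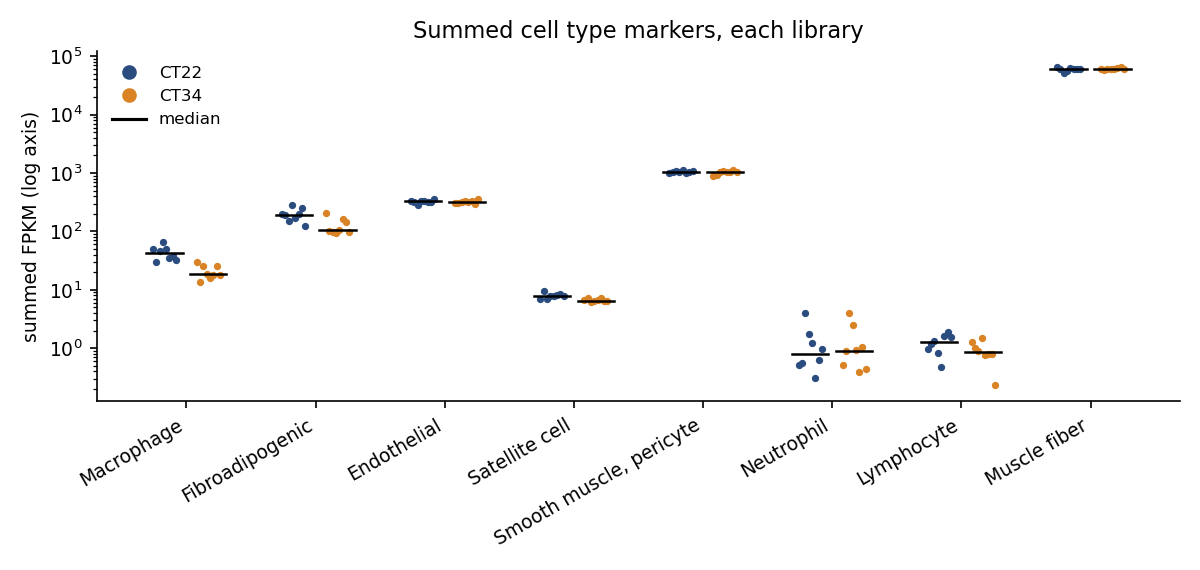
Summed FPKM of the markers of 8 cell types on a log axis, 1 point per library, 8 at CT22 and 8 at CT34, with the median as a bar. The macrophage sums at CT22 are at or above all those at CT34, and the fiber and endothelial sums overlap.

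Of 9 markers of neighboring slow fibers, only *Myh7* was called. Satellite cells and the remaining types had fewer calls. Satellite cell markers had 2 of 8 genes higher at CT22, *Heyl* (log2 0.41) and *Fgfr4* (log2 0.34), beside 10.9% of all genes. That count was 1 when any of 5 single libraries was left out. Smooth muscle and pericyte markers had 3 of 12 higher at CT22, with *Pdgfrb* (log2 0.33) and *Notch3* (log2 0.24) first, and 2 higher at CT34, *Myh11* (log2 -0.23) and *Abcc9* (log2 -0.17). Adipocyte markers had 1 of 11 called, *Plin4* (medians of 34.1 and 40.5 FPKM, log2 -0.35 ± 0.09, and -0.26 without FoxP1SkmKO KPC CT34 replicate 2). Lymphocyte markers had 1 of 2 tested called, *Cd3e* (0.287 and 0.140 FPKM, log2 0.93 ± 0.31, adjusted p = 0.0352), and 0 when any of 9 single libraries was left out. None of 3 neutrophil, 10 Schwann cell, 8 tendon and 5 erythroid markers tested passed the threshold in edgeR's test. The part of the macrophage and fibroadipogenic markers in the matrix differences was not tested.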

How the data were processed

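Poly(A) RNA of tibialis anterior was sequenced from 48 mice, and the 16 libraries of CT22 and CT34 were compared. The study's methods name STAR and HTSeq, whereas the submitters' processing notes name HISAT2 2.0.5, DESeq2 1.20.0 and mm39; which made the tables, and whether counting used strand, is not given in the sources used here. The authors deposited raw read counts per gene for each sample, a normalized signal table that was not tested, and FPKM, which gives the levels here. Counts were tested with edgeR 4.0.16 (R 4.3.3; quasi-likelihood, TMM scaling, low-count filter over the 8 groups), with cohort and time as terms and Benjamini-Hochberg adjustment over 14821 of 56748 genes; differences between cohorts came from a model with 1 coefficient per group. Log2 fold changes are CT22 minus CT34. Each SE is the absolute log2 value divided by the square root of edgeR's F statistic. DESeq2 1.42.0 and other settings served as alternatives. Scripts were tested on simulated data.

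Named genes were *Foxp1*, the clock lists, the 12 largest called differences in each direction (mean log2 CPM above 1, the same sign in 4 cohorts), up to 2 called members per list and direction, and 3 per contrast between cohorts. Named outside this rule, after their values were seen, were *Pdk4*, *Fbxo32*, *Trim63*, *mt-Nd1*, *Aif1*, *Adgre1*, *C1qb*, *Fcgr1* and *Col1a1*. The comparison and the lists were chosen with earlier results of these data known. Replicates are separate mice. Promoter windows were read from GRCm39 with GENCODE vM39. A gene of the clock lists is not reported here.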

Additional observations from a re-analysis of the deposited data

Results flagged for a closer look

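In groups of 8 libraries, 23 of 326 groups had a library far from the rest by Dixon's criterion, which chance meets in about 1 in 20. FoxP1SkmKO KPC CT34 replicate 2 held 10 of them, above the other CT34 libraries for *Nfil3* (15.1 FPKM), *Rn18s-rs5* (1143), ENSMUSG00002076173 (41.0), *Ppp1r3c* (149), *Fkbp5* (6.03), *Asb2* (252), *Slc38a2* (17.6), *Glul* (129), *Rpl7l1* (8.41) and *Plin4* (73.0). Among its clock genes, *Per2* (5.98 FPKM) lay within the CT34 range. *Dbp* (33.0 FPKM) was the lowest CT34 value, and *Arntl* (1.07 FPKM) and *Nfil3* the highest, on the side of CT22. None of them reached the CT22 range. Without this library 2869 genes were called. In WT KPC CT22 replicate 2, *Mdh2* (237 FPKM), *Psmc1* (43.4) and *Csf1r* (2.44) stood apart, and in WT KPC CT22 replicate 1, ENSMUSG00002076173 (111) and the summed neutrophil markers (4.00) did. FoxP1SkmKO control CT22 replicate 2 stood apart for *Wdfy4* (1.91 FPKM) and *Ighm* (34.1), and FoxP1SkmKO KPC CT22 replicate 1 for *Myh7* (1.29) and the summed Schwann cell markers (34.3). WT control CT34 replicate 1 did so for *Csf1r* (1.40 FPKM) and the summed tendon markers (47.5), WT control CT22 replicate 2 for *Bcl6* (20.9) and FoxP1SkmKO control CT34 replicate 1 for *Foxp1* (0.482).

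The time effect of *Mid1ip1* differed between the genotypes by log2 -0.92 (FoxP1SkmKO minus WT, adjusted p = 0.0443, edgeR), with an adjusted p of 2.05e-14 to 0.282 over the alternatives.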

How the results depend on the processing

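The time effect called 2971 to 3243 genes over the settings that kept all libraries of both times, and 190 with a 2-fold change required as well. Leaving out 1 library gave 2579 to 3230 genes, 1287 to 1591 higher at CT22 and 1280 to 1639 higher at CT34. Of 149 named genes, 130 kept their call and direction under every alternative and 19 did not. Within cohorts, leaving out a library gave 98 to 550 genes in WT control, 198 to 969 in WT KPC, 91 to 307 in FoxP1SkmKO control and 103 to 268 in FoxP1SkmKO KPC. The differences between cohorts then had 0 to 1 genes for the tumor, 0 to 5 for the genotype and 0 to 2 for the three-way term. With no filter on low counts, 927, 1486, 822 and 675 genes were called in the cohorts in that order, and 135, 139 and 138 for the 3 differences. The genotype difference had 11 genes with DESeq2, 0 with all 48 libraries, 0 with the replicate block and 2 with the length trend removed, and the three-way term had 1 with DESeq2. The cause was not tested. Same-numbered libraries correlated between -0.208 and 0.193 in 28 pairs (median -0.006, 5 over 0.1), and the samples were treated as unpaired. Shared handling of some same-numbered libraries was not tested. The replicate block gave 3086 calls. Thinning to the lowest depth, chosen after seeing the data, gave 3054. Of 45 list counts of 3 or more called members, 12 moved by over 1.5 times when some library was left out.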
